A study of Homo sapiens with 6 samples.

Results

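The 9 genes described here are the plasminogen activators PLAT and PLAU, the urokinase receptor PLAUR, the serpins SERPINE2 and SERPINB5, the elastase inhibitors SLPI and PI3, and the membrane protease ST14 with its inhibitor SPINT1. They were taken by gene name from a table of 58735 annotated genes, and all 9 had enough counts to be tested, as did 15726 genes in all. The set was selected on the differences between EGLN3 and control libraries themselves, as a system in which PLAT and SLPI moved in opposite directions in an earlier look at these data. The EGLN3 to control difference of each gene is therefore given as a description, and no call of theirs is read as support. RNA came from NCI-N87, an established human gastric cancer line, in 2 groups of 3 libraries. The EGLN3 group carried the plasmid PLVX-IRES-Puro-EGLN3 and the control group the empty PLVX-IRES-Puro. By the labels every culture had 7 days of puromycin. Exposure to the plasmid lasted 1 day in 5 libraries and is labelled as 5 days in EGLN3 replicate 3. EGLN3 is an oxygen-dependent prolyl hydroxylase that acts on hypoxia-inducible factors. The labels name no clone and do not tell whether the replicates were grown apart, so the spread between libraries may be technical.

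Plasminogen activators are serine proteases that cut circulating or cell-bound plasminogen into plasmin, which dissolves fibrin and opens matrix. PLAT, tissue-type activator, works best on fibrin, while PLAU, urokinase, works at the cell surface on its anchored receptor PLAUR. Epithelia hold such proteases in check with serpins, which trap a protease after it cuts them, and with small Kunitz and WAP (whey acidic protein) inhibitors. ST14, or matriptase, is a protease of the epithelial surface that activates other proteases and growth factor precursors, and SPINT1 is its main membrane inhibitor. SLPI and PI3 are secreted WAP inhibitors of neutrophil elastase found on mucosal surfaces.

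Promoter windows were read for the letters of 2 response elements, because PLAU and PLAUR are known AP-1 targets and because EGLN3 acts on hypoxia-inducible factors. Letters of the TATA box and the GC box were also searched and are not reported here. RefSeq windows of 250 bases before an annotated start (GRCh38.p14) were used for 5 of the 9 genes, 8 windows in all. These genes were PLAU, PLAUR, SERPINB5, SERPINE2 and SPINT1. No window was at hand for SLPI, PI3 and ST14, and PLAT was left out of the search for a reason other than a missing window. The search therefore says nothing about PLAT or SLPI. It also did not reach bases beyond the 250 before each start, so a window without a match does not show that a gene lacks the site. The AP-1 letters TGANTCA, which read the same on both strands, stood in 1 window each of PLAUR and SERPINB5 and in no window of PLAU. They were found in 6.57% of 35116 RefSeq windows of the same length. The hypoxia response letters ACGTG, searched on both strands, stood in 1 window of SERPINE2 and in 18.5% of all windows. The other SERPINE2 window, chr2:224038641-224038890, lies nearer the start of the gene in the deposited table and had no match. The 3 windows with a match are shown with these letters in capitals.
PLAUR, chr19:43670170-43670419, minus strand: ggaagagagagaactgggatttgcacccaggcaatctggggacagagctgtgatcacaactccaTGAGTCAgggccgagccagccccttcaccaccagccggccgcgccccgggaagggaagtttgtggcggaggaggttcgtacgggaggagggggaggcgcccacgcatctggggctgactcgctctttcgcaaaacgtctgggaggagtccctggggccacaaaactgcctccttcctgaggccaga
SERPINB5, chr18:63476708-63476957, plus strand: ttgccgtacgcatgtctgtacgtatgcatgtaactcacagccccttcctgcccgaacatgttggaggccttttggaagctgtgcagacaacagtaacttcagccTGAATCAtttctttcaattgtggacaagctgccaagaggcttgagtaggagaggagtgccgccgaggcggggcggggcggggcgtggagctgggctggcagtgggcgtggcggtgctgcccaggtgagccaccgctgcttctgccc
SERPINE2, chr2:224031479-224031728, minus strand: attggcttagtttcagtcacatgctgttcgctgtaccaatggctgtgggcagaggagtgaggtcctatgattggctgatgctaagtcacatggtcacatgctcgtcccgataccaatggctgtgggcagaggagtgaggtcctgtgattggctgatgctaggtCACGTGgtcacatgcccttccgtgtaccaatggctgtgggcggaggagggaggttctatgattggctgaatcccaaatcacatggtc
The match began 186 bases before the start in PLAUR, 146 bases before it in SERPINB5 and 87 bases before it in SERPINE2, where the 2 strands overlap in the same 6-letter palindrome. These starts are those of RefSeq. In the deposited table PLAUR begins at 43670547 and SERPINE2 at 224039319, both on the minus strand, and SERPINB5 begins at 63476761 on the plus strand. The 3 matches thus lie inside the gene spans used for counting. A match is a description of letters, and binding was not measured here.

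EGLN3 itself was raised in each library that carried it. It had 7298, 27674 and 27494 counts in EGLN3 replicates 1 to 3 and 10, 11 and 9 counts in control replicates 1 to 3, so the groups did not overlap (log2 fold change 11.00, SE 0.72; edgeR quasi-likelihood test, adjusted p = 0.031). When 1 library was left out in turn, the log2 fold change stayed between 10.73 and 11.41, and the call was lost in every fit other than that without EGLN3 replicate 1. Across 15726 genes, EGLN3 was the 1 gene called by that test. Library totals lay between 15157265 and 16767383 counts. The libraries differed mainly along a first principal component with 70% of the variance, which put EGLN3 replicate 1 at one end (59.4) and EGLN3 replicate 3 at the other (-45.9), with control replicates 3 and 1 at 34.4 and -36.2. The line's epithelial markers were high, with a summed level of EPCAM, CDH1, KRT8, KRT18 and KRT19 between 23850 and 44624 CPM in EGLN3 libraries and between 27881 and 37578 CPM in controls. CPM are counts scaled to library size with TMM factors, which correct for library make-up. Most markers of leukocytes, fibroblasts and endothelium were near 0, with 1 of 6 (LYZ), 1 of 5 (COL1A1) and 1 of 4 (VWF) reaching the level for testing. LYZ had 3.36 CPM with EGLN3 and 3.78 CPM in controls, and COL1A1 had 4.03 CPM with EGLN3 and 4.90 CPM in controls. Summed levels of the leukocyte, fibroblast and endothelial markers were 2.24 to 4.62, 3.89 to 4.56 and 0.474 to 0.874 CPM in EGLN3 libraries. In controls they were 3.32 to 4.77, 4.77 to 5.46 and 0.816 to 1.22 CPM. Of 7 gastric or intestinal markers, CDX2, GATA6 and MUC1 were tested, CDX1 had 0 counts, and TFF1, CLDN18 and CDH17 lay under the level for testing. In bulk RNA, fewer cells of a type and less RNA per cell cannot be told apart.

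PLAT was lower with EGLN3 and SERPINB5 was higher, and these were the 2 of 9 genes whose groups did not overlap. SLPI and PI3 had higher EGLN3 means, but each rested on EGLN3 replicate 1. The other 5 genes had overlapping groups. Groups also did not overlap in 6.26% of all tested genes, 2.64% higher and 3.62% lower with EGLN3, and nothing is read from the 2 of 9. None of the 9 was called by edgeR, DESeq2 or limma on FPKM, where with edgeR 0.00636% of all genes were.

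**Figure D1:**
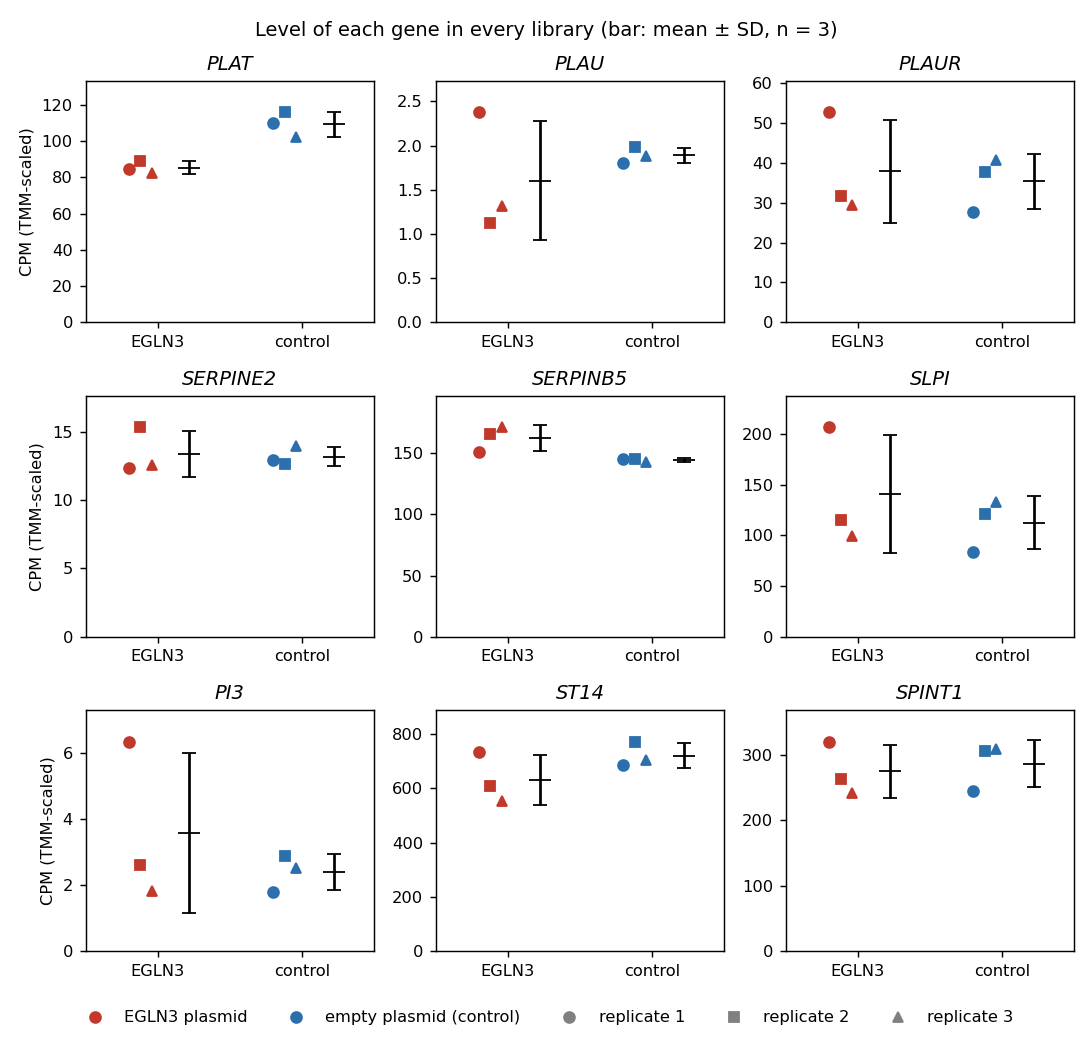
Level of each of the 9 genes in every library, in CPM after TMM scaling, with EGLN3 libraries left of controls, a symbol per replicate and the mean ± SD (n = 3) beside the points. The PLAT points of the EGLN3 group all lie below those of the controls and the SERPINB5 points all lie above, while EGLN3 replicate 1 stands high for SLPI, PI3, PLAU and PLAUR.

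PLAT had 84.9, 89.3 and 82.4 CPM in EGLN3 replicates 1 to 3 and 110.1, 116 and 102 CPM in control replicates 1 to 3. All EGLN3 libraries were lower than all controls. The mean was 85.5 ± 3.50 CPM with EGLN3 and 109 ± 6.91 CPM in controls (SD, n = 3 each), a log2 fold change of -0.36 (SE 0.12). PLAT (ENSG00000104368) spans 42175233 to 42207724 on chromosome 8, minus strand, in the deposited table (hg38), and no other annotated gene overlaps it. Its log2 fold change stayed between -0.40 and -0.30 when each library was left out in turn. EGLN3 replicate 1, with the lowest EGLN3 count of its group, had a PLAT level between those of the other two.

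PLAU, the other activator, was barely expressed. It had 36, 19 and 21 counts in EGLN3 replicates 1 to 3 and 31, 31 and 30 counts in control replicates 1 to 3. In CPM that was 1.60 ± 0.674 with EGLN3 and 1.89 ± 0.0879 in controls (SD, n = 3 each), with a log2 fold change of -0.24 (SE 0.34). EGLN3 replicate 1 was the highest of the 6 libraries, and the other 2 EGLN3 libraries were the lowest. Without EGLN3 replicate 1 the log2 fold change was -0.62, and without EGLN3 replicate 2 it was -0.04. PLAU shares 7529 bp with C10orf55 on the opposite strand, which had 3 counts over all libraries.

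PLAUR, the receptor that holds urokinase at the cell surface, was found at a higher level per gene length than PLAU in every library. It had 52.7, 31.6 and 29.3 CPM in EGLN3 replicates 1 to 3 and 27.6, 37.7 and 40.8 CPM in control replicates 1 to 3. The groups overlapped, with the highest library in the EGLN3 group and the lowest among controls. The log2 fold change of 0.10 (SE 0.27) turned to -0.20 without EGLN3 replicate 1 and to -0.05 without control replicate 1. On the FPKM scale (counts divided by gene length and library size), which allows genes to be compared, the PLAUR to PLAU ratio was 16.0 ± 2.20 with EGLN3 and 12.4 ± 2.11 in controls (SD, n = 3 each). PLAU counts near 30 limit that ratio.

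SERPINE2, or protease nexin-1, a serpin that inhibits thrombin and the plasminogen activators, was similar in both groups. It had 12.3, 15.4 and 12.6 CPM in EGLN3 replicates 1 to 3 and 12.9, 12.6 and 14.0 CPM in control replicates 1 to 3. The log2 fold change was 0.03 (SE 0.15), and it was -0.09 without EGLN3 replicate 2. The ratio of PLAT to SERPINE2 in FPKM was 9.25, 7.81 and 8.82 in EGLN3 replicates 1 to 3, below the 11.5, 12.3 and 9.81 in control replicates 1 to 3. The groups did not overlap in this ratio, which contains PLAT and so is no separate result.

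SERPINB5, or maspin, is a serpin of epithelial cells that is not known to trap proteases and is best known for limiting tumour cell invasion. It had 151, 166 and 171 CPM in EGLN3 replicates 1 to 3 and 145, 146 and 143 CPM in control replicates 1 to 3. All EGLN3 libraries were above all controls, by a narrow margin for EGLN3 replicate 1. The mean was 163 ± 10.7 CPM with EGLN3 and 144 ± 1.48 CPM in controls (SD, n = 3 each), a log2 fold change of 0.17 (SE 0.12). It stayed between 0.13 and 0.24 when each library was left out. SERPINB5 (ENSG00000206075) spans 63476761 to 63505085 on chromosome 18, plus strand. Without EGLN3 replicate 1, the count of genes among the 9 with groups that did not overlap was 4, with PLAU and ST14 added on the lower side, and 29.1% of all tested genes then did not overlap.

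SLPI, the secreted inhibitor of elastase and cathepsin G, had, on the log2 scale, a wider spread within groups than any other of the 9 genes with a mean above 10 CPM. SLPI and PI3 are also the shortest genes of the set, at 596 and 577 bases, with PLAU next at 2950. Their pooled within-group SDs in log2 CPM, 0.47 and 0.67, were the widest of the set, followed by PLAUR at 0.39. Whether gene length is linked to this spread was not tested. SLPI had 207, 116 and 99.2 CPM in EGLN3 replicates 1 to 3 and 83.4, 121 and 133 CPM in control replicates 1 to 3. EGLN3 replicate 1 was above every other library, and EGLN3 replicates 2 and 3 lay inside the control range. The mean was 141 ± 58.1 CPM with EGLN3 and 113 ± 26.0 CPM in controls (SD, n = 3 each), a log2 fold change of 0.32 (SE 0.32). Without EGLN3 replicate 1 it was -0.05, and over the other 5 fits that left out 1 library it was 0.15 to 0.52. The SLPI to PLAT ratio in FPKM was 27.1, 14.4 and 13.4 in EGLN3 replicates 1 to 3 and 8.41, 11.6 and 14.5 in control replicates 1 to 3, so the groups overlapped in the pair for which the genes were chosen.

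PI3, or elafin, inhibits elastase and proteinase 3 and shares the WAP fold with SLPI. It had 96, 44 and 29 counts in EGLN3 replicates 1 to 3 and 31, 45 and 40 counts in control replicates 1 to 3. As for SLPI, EGLN3 replicate 1 was the highest library. In CPM, EGLN3 replicate 2 lay inside the control range and EGLN3 replicate 3, at 1.81, lay at its lower end, just above the 1.80 of control replicate 1. The mean was 3.58 ± 2.41 CPM with EGLN3 and 2.40 ± 0.544 CPM in controls (SD, n = 3 each), a log2 fold change of 0.58 (SE 0.49) that was -0.10 without EGLN3 replicate 1. The SLPI to PI3 ratio in FPKM ran from 31.7 to 53.0 in EGLN3 libraries and from 40.7 to 51.4 in controls.

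ST14 and SPINT1, the membrane protease and its inhibitor, were both abundant. ST14 had 732, 607 and 553 CPM in EGLN3 replicates 1 to 3 and 687, 772 and 703 CPM in control replicates 1 to 3. EGLN3 replicate 1 lay inside the control range and the other 2 EGLN3 libraries below it, with a log2 fold change of -0.19 (SE 0.16) and a range of -0.30 to -0.11 when each library was left out. SPINT1 had 320.2, 263 and 242 CPM in EGLN3 replicates 1 to 3 and 245, 306 and 309 CPM in control replicates 1 to 3, with overlapping groups. Its log2 fold change of -0.06 (SE 0.17) was 0.02 without EGLN3 replicate 3 and 0.01 without control replicate 2. The ST14 to SPINT1 ratio in FPKM was 1.86, 1.88 and 1.86 in EGLN3 replicates 1 to 3 and 2.28, 2.06 and 1.85 in control replicates 1 to 3. The 3 EGLN3 ratios lay within the control range. SPINT1 shares 370 bp with SPINT1-AS1 on the opposite strand, which had 852 counts over all libraries. The sources used here do not state if counting used strand.

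**Figure D2:**
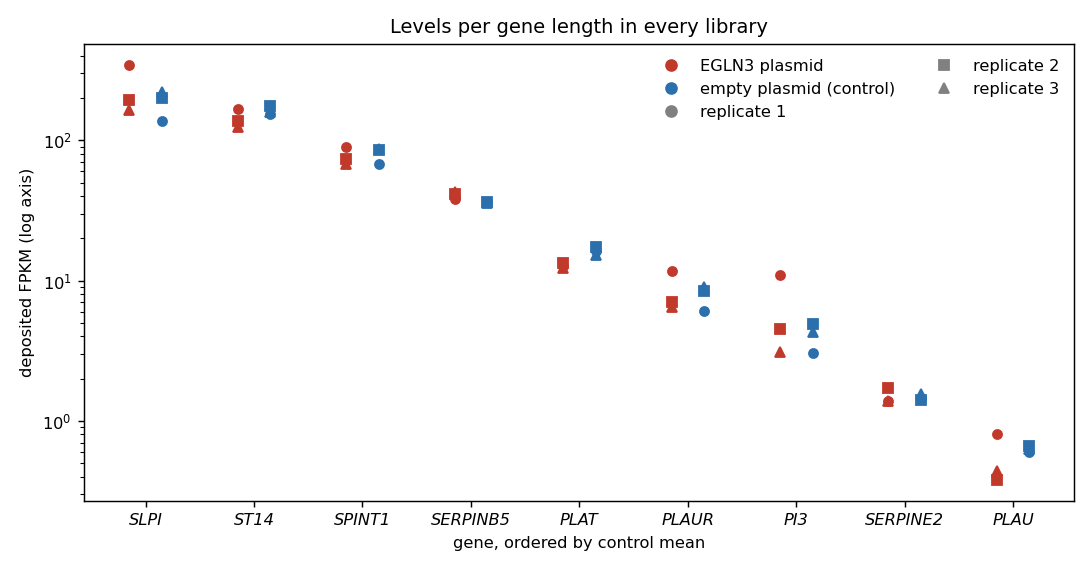
Deposited FPKM of the 9 genes in every library on a log axis, with EGLN3 libraries left of controls. SLPI and ST14 lie highest in both groups and PLAU lowest.

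Per gene length, the inhibitors SLPI and SPINT1 and the protease ST14 led the order in both groups. Deposited FPKM averaged 234 ± 98.0 with EGLN3 and 187 ± 43.9 in controls for SLPI (SD, n = 3 each), and 144 ± 21.8 with EGLN3 and 164 ± 10.8 in controls for ST14. SPINT1 averaged 77.0 ± 11.7 with EGLN3 and 80.0 ± 10.4 in controls, and SERPINB5 40.9 ± 2.46 with EGLN3 and 36.3 ± 0.353 in controls. Then came PLAT at 12.8 ± 0.569 with EGLN3 and 16.3 ± 1.03 in controls, and PLAUR at 8.43 ± 2.91 with EGLN3 and 7.85 ± 1.56 in controls. The lowest were PI3 at 6.17 ± 4.18 with EGLN3 and 4.11 ± 0.948 in controls, SERPINE2 at 1.49 ± 0.189 with EGLN3 and 1.47 ± 0.0822 in controls, and PLAU at 0.539 ± 0.229 with EGLN3 and 0.633 ± 0.0320 in controls. The order was the same in both groups. SLPI and ST14 had overlapping ranges in each group, PLAUR and PI3 overlapped in the EGLN3 group, and the other neighbours in the order did not overlap. In controls SLPI ranked 162 and ST14 191 of 19951 protein-coding genes by FPKM, SPINT1 440 and SERPINB5 1125, while PLAU ranked 11204.

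**Figure D3:**
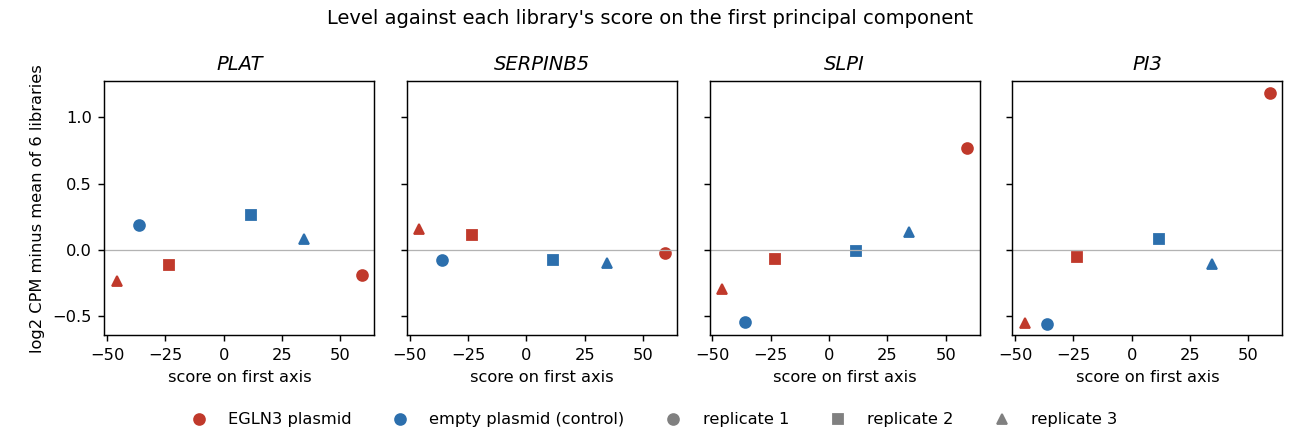
Log2 CPM of PLAT, SERPINB5, SLPI and PI3, centred on the mean of the 6 libraries, against each library's score on the first principal component, with EGLN3 libraries in red and controls in blue. SLPI climbs with the score in both colours and PI3 in the EGLN3 libraries, while among controls PI3 is highest in replicate 2. PLAT splits by colour at both ends of the axis.

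Within each group, the libraries at the ends of the first axis gave a comparison other than that between groups. The EGLN3 pair, replicates 1 and 3, is not independent of the choice of genes, because the higher SLPI mean rested on EGLN3 replicate 1. That pair also differed in labelled plasmid exposure, 1 day in replicate 1 and 5 days in replicate 3. EGLN3 itself stood at 481 CPM in replicate 1 and 1717 CPM in replicate 3. In that pair these differences cannot be told apart from the axis. SLPI was 2.09 times as high in EGLN3 replicate 1 as in EGLN3 replicate 3, and 1.60 times as high in control replicate 3 as in control replicate 1. PI3 differed by 3.34 times in the EGLN3 pair and 1.37 times in the control pair, and PLAUR by 1.79 times in the EGLN3 pair and 1.47 times in the control pair. Within-group differences were ranked with their sign and not by size, so genes with a fall of any size rank below SLPI. In this ranking SLPI was above 91.1% of tested genes in the EGLN3 pair and 89.7% in the control pair. PLAT stood near the middle, with a ratio of 1.03 in the EGLN3 pair, above 52.6% of genes, and 0.928 in the control pair, above 42.4%. SERPINB5 was at 0.880 in the EGLN3 pair and 0.984 in the control pair, and SERPINE2 at 0.983 in the EGLN3 pair and 1.08 in the control pair. Over the 9 genes, 6 were higher in EGLN3 replicate 1 and control replicate 3 alike and 1, SERPINB5, was lower in both. Among all tested genes 42.1% were higher in both and 42.7% lower in both. The within-group difference of SLPI, on the log2 scale 1.06 in the EGLN3 pair and 0.68 in the control pair, was larger than its difference between groups of 0.32. For PLAT it was 0.04 in the EGLN3 pair and -0.11 in the control pair.

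**Figure D4:**
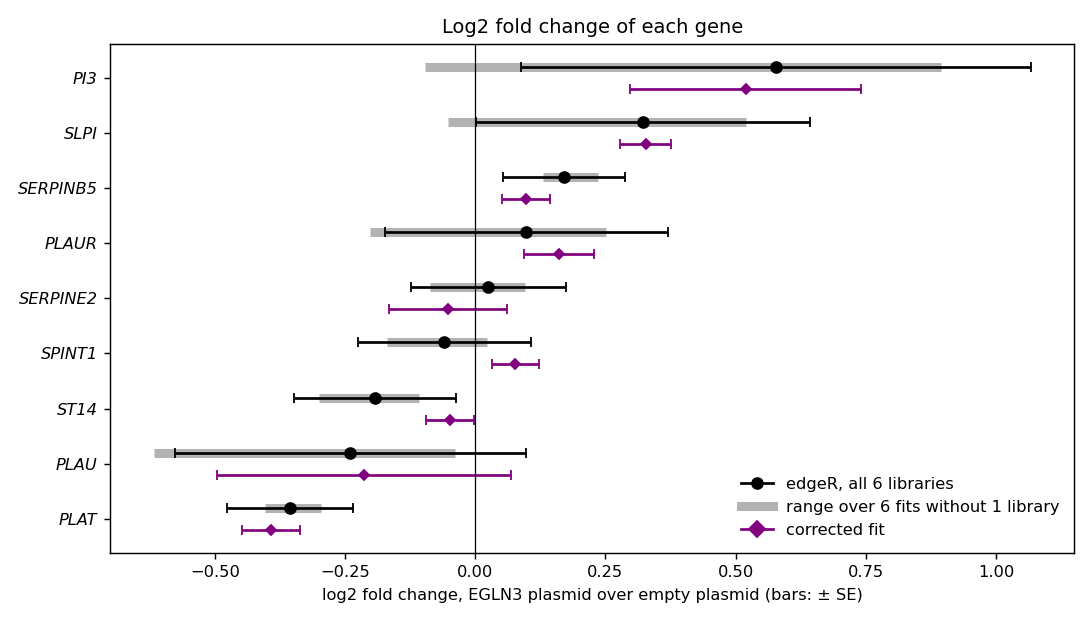
Log2 fold change (EGLN3 over control) of the 9 genes with its SE in edgeR (black), its range over the 6 fits without 1 library (grey band) and the estimate of the corrected fit (purple). For SLPI and PI3 the band crosses 0 in the fit without EGLN3 replicate 1, and for PLAT and SERPINB5 it does not cross 0.

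In a fit that took the axis out, PLAT was lower and SLPI higher. This corrected fit adds 1 surrogate variable, an estimated library term, and removes each library's trends on GC content and gene length. It treats these estimates as known, so its SEs may be too small. Its log2 fold change was -0.39 (SE 0.06) for PLAT and 0.33 (SE 0.05) for SLPI. These were the 2 of 9 genes it called, while it called 0.992% of all genes, and nothing is read from that count because the choice of genes used this contrast. When each library was left out of the corrected fit in turn, PLAT lay between -0.45 and -0.35 and SLPI between 0.29 and 0.35, with SLPI at 0.33 without EGLN3 replicate 1. These refits reuse the contrast that chose the genes, so their ranges are no support for the pair. Those fits called 49 to 219 of all genes, the fewest without EGLN3 replicate 3 and the most without control replicate 3. SERPINB5 was at 0.10 (SE 0.05) and PI3 at 0.52 (SE 0.22). PLAUR was at 0.16 (SE 0.07), PLAU at -0.21 (SE 0.28) and ST14 at -0.05 (SE 0.05). SPINT1, at 0.08 (SE 0.05), and SERPINE2, at -0.05 (SE 0.11), had the other sign from the uncorrected fit. Without EGLN3 replicate 1, SLPI was thus at 0.33 in the corrected fit and at -0.05 in the uncorrected fit.

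Among other genes of the plasminogen system, none was called in the uncorrected fit, and the substrate was at or near 0. PLG, plasminogen itself, had 0 counts in the 3 EGLN3 libraries and 1 count in the 3 controls. Of 24 listed genes 16 were tested, and 0 were called by edgeR, DESeq2 or limma on FPKM, with 0 at an unadjusted edgeR p under 0.05, where 1.11% of all tested genes were. The highest were ANXA2 and S100A10, which form a complex that binds plasminogen and PLAT, and ENO1, a glycolytic enzyme that can act as a plasminogen receptor. ANXA2 had 3045 ± 788 CPM with EGLN3 and 3218 ± 469 CPM in controls (log2 fold change -0.08, SE 0.23), S100A10 had 1112 ± 455 CPM with EGLN3 and 1003 ± 300.1 CPM in controls (0.15, SE 0.35), and ENO1 had 1086 ± 297 CPM with EGLN3 and 1216 ± 184 CPM in controls (-0.16, SE 0.23; SD, n = 3 each). S100A10 was the 1 gene of this list called in the corrected fit (log2 fold change 0.22, SE 0.05; edgeR, adjusted p = 0.017). That fit called 0.992% of all tested genes, and its SEs may be too small. In CPM the S100A10 groups overlapped, with 1633, 910 and 793 in EGLN3 replicates 1 to 3 and 682, 1048 and 1277 in control replicates 1 to 3.

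**Figure D5:**
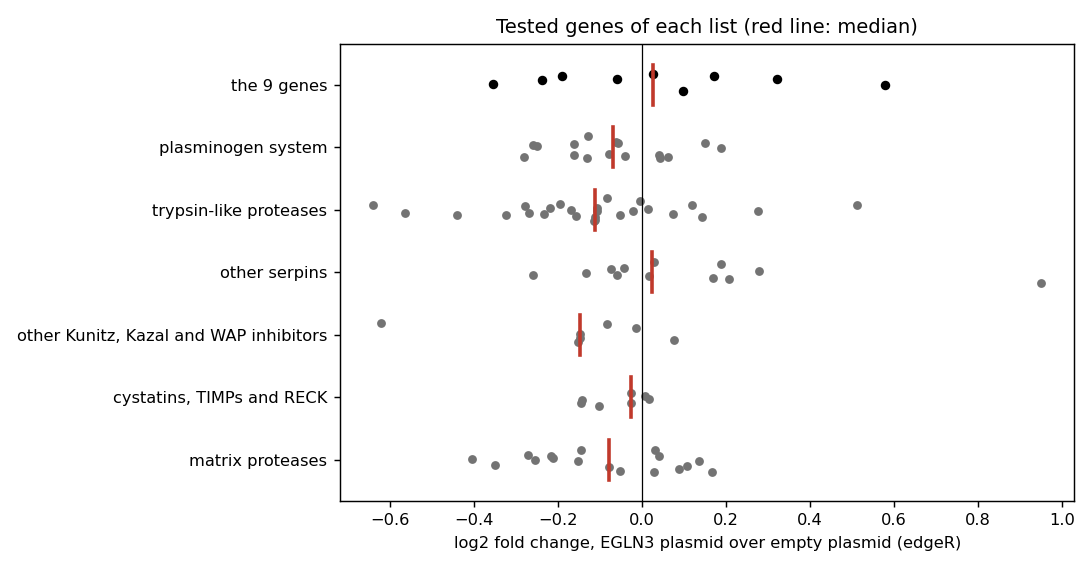
Log2 fold change (EGLN3 over control, edgeR) of the tested genes of 6 lists and of the 9 genes, a point per gene with the median as a red line. A 7th list, of neutrophil proteases, had no tested gene, and the medians lie between -0.15 and 0.03.

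Related proteases and inhibitors showed no called gene in the uncorrected fit. Over all lists, 83 of 141 genes were tested and 0 were called by edgeR, DESeq2 or limma on FPKM, with 2 at an unadjusted edgeR p under 0.05 (SERPINB7 and MMP14, named after their values were seen), against 174 of 15726 genes tested. Their median log2 fold change was -0.08, with 27 higher and 56 lower, against a median of 0.01 with 8210 higher and 7516 lower among all genes tested. SERPINB7 had 2.94 ± 0.740 CPM with EGLN3 and 1.52 ± 0.0585 CPM in controls, and MMP14, a membrane-anchored metalloprotease, had 30.2 ± 2.55 CPM with EGLN3 and 38.5 ± 0.470 CPM in controls. Among 26 tested trypsin-like proteases and their partners, 20 were lower and the median was -0.11. The most abundant were KLK6 at 744 ± 142 CPM with EGLN3 and 851 ± 93.9 CPM in controls, TMPRSS4 at 288 ± 9.34 CPM with EGLN3 and 311 ± 15.3 CPM in controls, and PRSS22 at 193 ± 59.4 CPM with EGLN3 and 209 ± 36.1 CPM in controls. KLK10, a secreted kallikrein, had a log2 fold change of -0.20 in the corrected fit (SE 0.05; edgeR, adjusted p = 0.033), the 1 call of this list there. That fit called 0.992% of all tested genes, and the CPM groups of KLK10 overlapped. HGF, a growth factor whose precursor ST14 can activate, had 0 counts in all libraries, which allows a level of up to 0.0309 CPM by counting error alone.

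Of the other inhibitors, 12 of 25 serpins were tested, with a median log2 fold change of 0.02, and 7 of 20 Kunitz, Kazal and WAP genes, with a median of -0.15. SERPINB1, an inhibitor of neutrophil proteases, was the most abundant other serpin at 278 ± 43.6 CPM with EGLN3 and 273 ± 29.7 CPM in controls, followed by SERPINH1, a collagen chaperone, and SERPINA1, alpha-1 antitrypsin. Their log2 fold changes were 0.03 (SE 0.16), -0.13 (SE 0.18) and -0.04 (SE 0.20). SPINT2, a relative of SPINT1 that also inhibits ST14, had 522 ± 170.3 CPM with EGLN3 and 579 ± 83.7 CPM in controls. For APLP2 and APP, which carry Kunitz domains in some isoforms, the log2 fold changes were -0.08 (SE 0.14) and -0.15 (SE 0.21). Of 12 cystatins, TIMPs and RECK, 7 were tested with a median of -0.03, led by CSTB, CST3 and TIMP1 at -0.15 (SE 0.36), -0.03 (SE 0.33) and -0.03 (SE 0.35). Of 23 matrix proteases, 17 were tested with a median of -0.08, led by CTSB, ADAM10 and CTSD at -0.15 (SE 0.13), 0.04 (SE 0.26) and 0.09 (SE 0.46). None of 5 listed neutrophil serine protease genes was tested. ELANE, the elastase that SLPI and PI3 inhibit, had 1 count in EGLN3 libraries and 0 in controls. The 3 highest of these genes were AZU1 with 2 counts in EGLN3 libraries and 11 in controls, PRTN3 with 2 in EGLN3 libraries and 0 in controls, and CTSG with 2 in EGLN3 libraries and 0 in controls. Across these lists, genes were chosen with earlier results known and no list was tested as a set.

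The genes most like PLAT and SLPI were found among 10484 protein-coding genes with a mean of at least 5 CPM, by the root mean square distance between centred log2 CPM over the 6 libraries. For PLAT they were ARVCF, a catenin of cell junctions, MAN2B1, a lysosomal mannosidase, and EPHA1, an ephrin receptor, at distances of 0.020, 0.036 and 0.042, against a median of 0.29 over all genes compared. ARVCF had 27.9 ± 1.27 CPM with EGLN3 and 35.3 ± 2.56 CPM in controls. For SLPI they were SS18L2, FTL, the ferritin light chain, and GTF3C6 at 0.044, 0.063 and 0.075, against a median of 0.43. FTL had 430 ± 152 CPM with EGLN3 and 359 ± 80.8 CPM in controls, so its groups spread as those of SLPI did. These distances share the 6 libraries and the axis between them.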

How the data were processed

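The titles in the labels set 2 groups of 3 libraries, with totals of 15157265 to 16767383 counts. The deposited gene counts are whole numbers made by the authors and not scaled. The submitters' processing notes list DESeq2 1.20.0, HISAT2 2.0.5 and featureCounts 1.5.0-p3 with hg38, and no role for each tool. The deposited FPKM are the authors' counts per gene length and library factor.

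The test was edgeR 4.0.16's quasi-likelihood test in R 4.3.3 (filterByExpr, TMM, robust), with Benjamini-Hochberg adjustment over 15726 genes and a call at an adjusted p under 0.05. Alternatives were DESeq2 1.42.0, RLE scaling, no filter, a replicate block, limma 3.58.1 on log2(FPKM + 1), with and without a floor of 0.5 FPKM in 3 libraries, and on log2(FPKM + 0.1) with it, 1 surrogate variable (sva 3.50.0), the same with GC and length splines (5 degrees of freedom, GENCODE 29 on GRCh38), and leaving out each library. Counts of genes whose groups do not overlap, under FPKM or without a library, and corrected fits without a library were added after seeing the data. Libraries of a group differed by a chi-square of 8.07 to 104 per degree of freedom, which is more than counting error alone gives. Each was counted as 1 replicate, but the chi-square does not show that the replicates were grown apart. Procedures were tested on simulated counts drawn without a shared axis between libraries. That test therefore does not cover how the corrected fit handles such an axis.

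The 9 genes and all lists were chosen with earlier results of these data known. Named genes were EGLN3, the 9 genes, list genes called or among the 3 most abundant of each list, and the 3 genes most like PLAT and SLPI. Others (PLG, SERPINB7, MMP14, KLK10, HGF, ELANE and the neighbour genes) were named after their values were seen. The floor of 3 counts covers counting error alone. Some genes counted in the lists are not reported here.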

Additional observations from a re-analysis of the deposited data

How the results depend on the processing

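EGLN3 was the 1 gene called with RLE scaling, DESeq2, no filter on low counts and limma on log2(FPKM + 0.1). The count was 0 with limma on log2(FPKM + 1), with or without a minimum, 749 with the surrogate variable alone, 156 in the corrected fit, and 0 to 1 over the 6 fits that left out 1 library (1 without EGLN3 replicate 1, 0 in each of the others). EGLN3's adjusted p ran from 9.8e-07 to 0.67 over those 6 edgeR fits, with a log2 fold change of 10.73 to 11.41, and it was 10.83 under the replicate block. List genes called numbered 7 with the surrogate variable alone, 2 in the corrected fit and 0 in every other setting. The 9 genes had 2 with groups that did not overlap in CPM and in FPKM, and 2 to 4 when 1 library was left out.

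The replicate number as a block gave 0 calls, but same-numbered libraries did not deviate together (correlations of -0.79, -0.18 and -0.67 across genes for numbers 1 to 3), so the numbers were not taken as pairs. Under the block PLAT and SLPI had log2 fold changes of -0.35 and 0.27. Of the 9 genes, 4 (PLAT, PLAU, SERPINB5 and ST14) kept their sign in the 6 fits without 1 library and in the 9 other settings, and 5 changed it in at least 1. PLAU and PI3, with under 100 counts in each library, are limited by depth.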

Other observations

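SLPI and PI3 lie 75695 bp apart on chromosome 20 (SLPI from 45252239 to 45254564 on the minus strand, PI3 from 45174876 to 45176544 on the plus strand). The protein-coding genes between them, SEMG1 and SEMG2, which encode seminal proteins, had 0 counts in all libraries, as did WFDC5, 59704 bp from PI3. Around SLPI the proteoglycan gene SDC4 had 269 CPM with EGLN3 and 264 CPM in controls (log2 fold change 0.03, SE 0.12), and beyond PI3 the kinase gene STK4 had 64.6 CPM with EGLN3 and 60.6 CPM in controls (0.09, SE 0.30).

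SERPINB5 sits at the edge of a serpin cluster on chromosome 18. Its neighbours SERPINB12 and SERPINB13 had 4 and 2 counts over all libraries. VPS4B, on the other side, had 44.0 CPM with EGLN3 and 37.7 CPM in controls (log2 fold change 0.22, SE 0.18). The genes within 100 kb of PLAT, AP3M2 and IKBKB, stood at log2 fold changes of 0.08 (SE 0.14) and -0.03 (SE 0.12), while PLAT itself was at -0.36. Of the protein-coding genes within 100 kb of PLAUR, 8 of 11 were tested. CADM4, a cell adhesion gene 6256 bp away, was the 1 called in the corrected fit (log2 fold change -0.21; edgeR, adjusted p = 0.027). That fit called 0.992% of all tested genes. CADM4 was at -0.32 (SE 0.20) in the uncorrected fit.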
